A study of Mus musculus with 2 samples.

Results

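Thermosensory TRP channels are ion channels of the transient receptor potential family through which sensory endings take up heat, cold and irritant chemicals. The 6 genes followed here, Trpv1, Trpa1, Trpm8, Trpm3, Trpv2 and Trpm2, were chosen by name as the channels of this kind, out of 39098 gene symbols in the count tables, and all 6 had counts in both libraries. They were measured by BD Rhapsody single-cell RNA sequencing, in which each captured mRNA molecule is counted by a unique molecular identifier (UMI), in dissociated trigeminal ganglion, the ganglion that holds the sensory neurons of the face. There was 1 library from male C57BL/6 mice 5 to 8 weeks old that the labels call untreated and the study's methods describe as given saline, and 1 from males of the same ages a week after complete Freund's adjuvant (CFA), an agent that causes lasting local inflammation, was given into the right vibrissal pad. The study's methods give 6 mice per group, but the number whose ganglia entered each library is unstated. Differences between mice, between dissociations and between conditions therefore cannot be told apart. No test between conditions was possible, and every interval below covers counting error only.

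The control library held 7298 cells and the CFA library 4080. After the study's limits on genes per cell and mitochondrial counts, 6695 and 3661 cells were left, of which 795 and 409 were neurons by at least 5000 UMIs and at least 10 UMIs of Tubb3, Snap25 and Stmn2 together. Median depth was 44575 UMIs per control neuron and 36857 UMIs per CFA neuron. The libraries shared 27 cell labels, 0 of them among neurons. Lists of genes of other cells and material moved with the library. Over all neurons 5 Schwann cell genes summed to 996 and 803 CPM (UMIs per 1000000 UMIs of the class and library) in control and CFA, 5 satellite glia genes to 405 and 375 CPM, 5 interferon-induced genes to 180 and 68.2 CPM, 5 macrophage genes to 21.3 and 5.43 CPM and 4 haemoglobin genes to 34.9 and 44.2 CPM. No gene of these lists was at 0 over all neurons, and their part in the results was not tested.

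Trpv1 is the channel of capsaicin, noxious heat and acid, and Trpa1 that of mustard oil and other reactive irritants. Trpm8 opens to menthol and cooling. Trpm3 opens to heat and to the steroid pregnenolone sulfate, and mice that lack Trpv1, Trpm3 and Trpa1 together lose nearly all withdrawal from painful heat. Trpv2 was cloned as a relative of Trpv1 that opens at very high temperatures, and Trpm2 is a warmth- and peroxide-sensitive channel gated by ADP-ribose that is also known from phagocytes. In sensory neurons the Trpv1 and Trpa1 proteins are sensitized by inflammatory mediators and by nerve growth factor.

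The neurons fell into 15 clusters, made without any TRP gene and named from markers that hold none. Peptidergic C-like neurons, rich in the neuropeptide genes Calca and Tac1, were split by the somatostatin receptor gene Sstr2 into an Sstr2-low class of 3 clusters (227 control and 119 CFA neurons) and an Sstr2-high class (95 and 66). An interferon-led class (20 and 3), with Sstr2 at 32.9 CPM, was set apart by interferon-induced genes among its leading genes. The other classes were Nefh peptidergic-like neurons (54 and 37), NP1-like neurons with the itch and pain receptor gene Mrgprd (174 and 65), NP2-like neurons with Mrgpra3 (50 and 15), NP3-like neurons with the itch peptide gene Nppb (12 and 11), Foxp2/Cdh8 neurons (62 and 37), C low-threshold mechanoreceptor-like neurons (cLTMR-like, 72 and 47), large A-fibre-like neurons (15 and 6) and an unnamed cluster (14 and 3). Penk, one of the markers set for the Foxp2/Cdh8 class, was near absent from it, at 3.01 CPM in the control library, while Foxp2 stood at 126 CPM there and at no more than 1.86 CPM in the other classes of that library.

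In GRCm38 coordinates from GENCODE M21, Trpv1 lies at chr11:73234292-73261242 on the plus strand, Trpv2 at chr11:62574486-62600515 (plus), Trpa1 at chr1:14872648-14918862 (minus), Trpm8 at chr1:88277661-88389293 (plus), Trpm3 at chr19:22139046-22995410 (plus) and Trpm2 at chr10:77907722-77970563 (minus). Trpm3 is the longest of them at 856.4 kb and holds other genes, among them the miRNA gene Mir204 and the antisense gene Gm27151, which had 192 UMIs in control and 68 UMIs in CFA neurons. Trpm8 overlaps the antisense gene 4930453O03Rik, which had 1 UMI and 0 UMIs. Whether the counting used strand is not given in the sources used here, so reads of such pairs cannot be told apart.

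RefSeq promoter sequences were held for 5 of the 6 genes and not for Trpa1. The 2 shown belong to the channels of heat and of cold, and were searched on both strands for TGTGGT (the core bound by Runt factors such as Runx1, on which nociceptor development depends), TATAAA (the TATA box), GGGCGG (the GC box) and TGACGT, over the 250 bases before the RefSeq start. The Trpv1 stretch, chr11:73233899-73234148 on the plus strand of GRCm38.p6, held TGTGGT in capitals, beginning 50 bases before the start. Of Trpm8 only a 30-base window is shown, chr1:88306693-88306722 on the plus strand, with TATAAA in capitals, beginning 30 bases before a RefSeq start that lies inside the GENCODE gene.
Trpv1: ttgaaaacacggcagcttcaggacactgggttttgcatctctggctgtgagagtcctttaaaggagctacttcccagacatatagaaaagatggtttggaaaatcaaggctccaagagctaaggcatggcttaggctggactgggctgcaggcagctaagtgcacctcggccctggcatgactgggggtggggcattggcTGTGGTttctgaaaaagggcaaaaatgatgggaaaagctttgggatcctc
Trpm8: gctgtgtgtgacTATAAAgtcctccctcct
The Trpv1 stretch held none of the other 3 motifs, and the 250 bases before the Trpm8 start held no TGTGGT. Among 32851 promoters with windows of the same length, TGTGGT or its reverse complement was in 14.0%, TATAAA in 4063 of them, GGGCGG in 32.7% and TGACGT in 6.47%. These matches describe letters and not binding.

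By class, Trpv1 was highest in the peptidergic and NP3-like neurons. A part of the Foxp2/Cdh8 class, described below, had 525 CPM in the control library. The Sstr2-low class had 621 CPM (605–637, 95% Poisson interval) in control and 525 CPM (503–547) in CFA neurons, and held 54.1% and 50.6% of the Trpv1 UMIs of all neurons. Every one of its neurons had at least 1 Trpv1 UMI, with a median of 23 and a highest value of 85 UMIs among the control and 17 and 61 UMIs among the CFA neurons. Next in the control library came Nefh peptidergic-like (507 CPM), NP3-like (489 CPM), Sstr2-high (467 CPM) and interferon-led neurons (459 CPM), where no neighbours in this order differed beyond their counting error. The Foxp2/Cdh8 class followed at 161 CPM (147–177), then NP2-like neurons at 99.5 CPM (89.4–110.3) and NP1-like neurons at 57.2 CPM (52.9–61.8). In cLTMR-like neurons Trpv1 was 6.34 CPM, and the large A-fibre-like neurons had 0 UMIs in both libraries.

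After each neuron was thinned to 5000 UMIs, so that depth was the same everywhere, Trpv1 was found in 55.5% of control and 54.5% of CFA neurons, against 77.2% and 70.7% before thinning. In cLTMR-like neurons, a class not known for heat sensing, 1 of 72 control neurons (1.39%) and 0 of 47 CFA neurons (exact upper limit 7.55%) had a thinned Trpv1 UMI. Before thinning 21 of the control (29.2%) and 6 of the CFA neurons (12.8%) had one.

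Within classes that share a name Trpv1 was unevenly spread. The NP2-like class was made up of cluster 9 (28 control and 8 CFA neurons) and cluster 10 (22 and 7), of which cluster 10 led with Mrgpra3. Trpv1 was 6.77 CPM in cluster 9 and 224 CPM in cluster 10 of the control library, a 33.0-fold difference (log2 5.05, 4.28 to 5.93), and 4.31 CPM and 181 CPM among CFA neurons (42.1-fold, log2 5.40, 3.49 to 8.47). Trpa1 lay the other way round, at 121 and 22.0 CPM in control and 114 and 13.8 CPM in CFA. The heat channel and the irritant channel thus led in different clusters of this class in both libraries. The Trpv1 values of cluster 9 rest on 14 control and 2 CFA UMIs. Low Trpv1 levels were also counted in cells other than neurons, as given below. The part of RNA from other neurons in the cluster 9 values, and so in the folds, was not tested. Among NP1-like neurons Trpv1 was 26.1 CPM in cluster 2 and 104 CPM in cluster 5 among control neurons, and 9.70 and 100.4 CPM among CFA neurons.

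Trpa1 was more unevenly spread than its class levels show. The Sstr2-low class had 832 CPM (813–851) in control and 612 CPM (589–636) in CFA neurons and held 67.2% and 66.4% of all neuronal Trpa1 UMIs. Interferon-led neurons of the control library came next at 515 CPM, where 204 of 353 UMIs lay in 1 neuron of 20. Nefh peptidergic-like neurons followed at 192 CPM in control and 173 CPM in CFA, with 60.1% and 68.9% of their UMIs in the 3 neurons with the most. NP1-like neurons had 170 CPM (162–177) and 162 CPM, and a UMI was found in 94.8% and 95.4% of them before thinning. The 3 neurons with the most held 6.58% of the UMIs of 174 control and 19.8% of those of 65 CFA neurons. The clusters of this class differed, at 137 CPM in cluster 2 and 219 CPM in cluster 5 of the control library (log2 0.68, 0.55 to 0.81). In CFA they stood at 125 and 213 CPM (0.77, 0.54 to 0.999).

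Inside the Sstr2-low class, cluster 4 had 1141 CPM and cluster 8 had 1106 CPM of Trpa1 in the control library, and neither exceeded the other beyond counting error; in CFA cluster 8 stood higher, at 1062 against 714 CPM. Cluster 0 was 3.13-fold below cluster 4, at 364 CPM. In cluster 8, 0 of 44 control and 0 of 18 CFA neurons were without a Trpa1 UMI, against 24 of 98 and 21 of 71 neurons in cluster 0. The Sstr2-high class stood apart from these clusters, since 50 of 95 control and 41 of 66 CFA neurons had no Trpa1 UMI and the median neuron was at 0 in both libraries. In CFA the median was also 0 in Nefh peptidergic-like neurons, where 14 of 37 had a Trpa1 UMI, and in Foxp2/Cdh8 and NP3-like neurons.

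**Figure D1:**
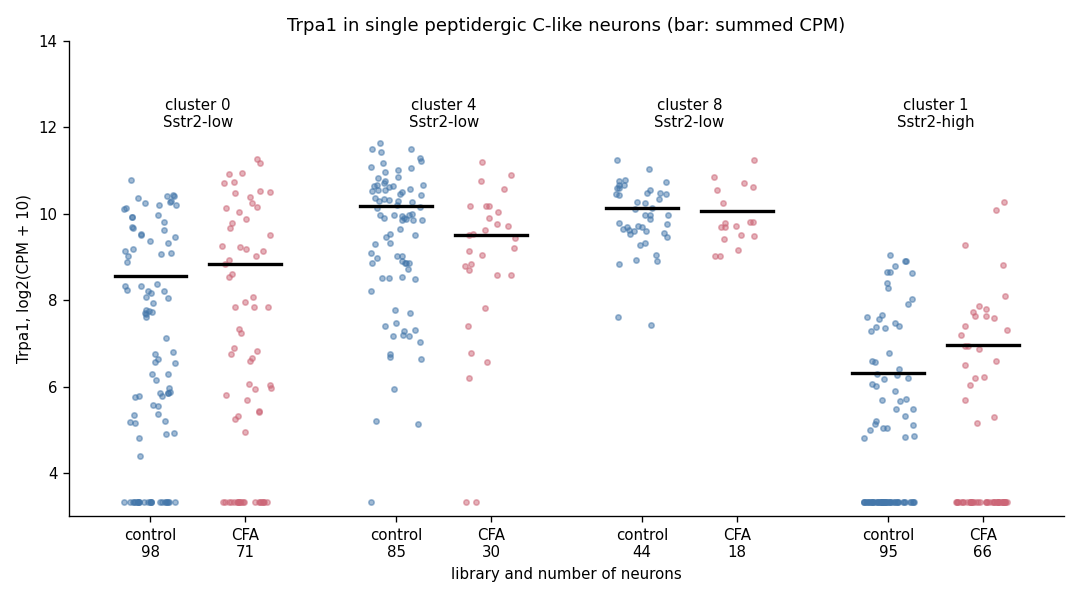
Trpa1 in each peptidergic C-like neuron as log2(CPM + 10), by cluster and library; each point is a neuron, the black bar is the CPM of the summed counts on the same scale, and the numbers under the axis are neurons. Neurons at the bottom edge have no Trpa1 UMI: none in cluster 8, and 50 of 95 control and 41 of 66 CFA neurons in cluster 1, the Sstr2-high class.

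Trpm8 was found almost wholly in the Foxp2/Cdh8 class, which held 92.3% of its UMIs in control and 94.6% in CFA neurons. The level there was 199 CPM (183–217) in control and 216 CPM (191–244) in CFA neurons. No other class passed 5.83 CPM, the value of the interferon-led class, which rests on 4 UMIs. Thinned to 5000 UMIs, 53.2% (33 of 62) and 59.5% (22 of 37) of the class had a Trpm8 UMI, whereas 0 of 174 and 0 of 65 NP1-like neurons did, with exact upper limits of 2.10% and 5.52% at this depth. Before thinning 2 of these control neurons (1.15%) and 0 of the CFA neurons had one.

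Trpv1 divided the Foxp2/Cdh8 neurons far more than Trpm8 did. Clustered more finely, at resolution 2 and again without any TRP gene, the 99 neurons fell into a part with low Tac1 (35 control and 18 CFA neurons) and a part with high Tac1 (27 and 19). This finer split was chosen after the values were seen. Trpm8 was present in both: 234 CPM (213–257) and 265 CPM (230.4–303) in the Tac1-low part, and 113 CPM (90.2–139) and 120.3 CPM (89.0–159) in the Tac1-high part. The Tac1-high part was thus lower in Trpm8, by 2.07-fold (1.64–2.64) in control and 2.20-fold (1.61–3.07) in CFA. Trpv1 was 15.3 CPM (10.3–22.0) and 20.0 CPM (11.4–32.5) in the Tac1-low part against 525 CPM (475–579) and 409.9 CPM (350.05–477) in the Tac1-high part, a difference of 34.3-fold (23.5–51.9) in control and 20.5-fold (12.3–36.7) in CFA. Of the Tac1-low neurons, 10 of 35 and 3 of 18 had any Trpv1 UMI, with medians of 0, while 26 of 27 and 17 of 19 Tac1-high neurons did, with medians of 14 and 9 UMIs. The Trpv1 values of the Tac1-low part rest on 29 control and 16 CFA UMIs. The part of RNA from other neurons in them, and so in the folds, was not tested.

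Trpa1 and Trpm3 went with Trpv1 in this class. Trpa1 was 11.6 CPM and 3.75 CPM in the Tac1-low part and 254.5 CPM and 177 CPM in the Tac1-high part, although in CFA 35 of the 72 UMIs of the latter lay in 1 neuron. Trpm3 was 13.7 and 21.2 CPM against 112 and 98.2 CPM. Trpm2 was 26.4 and 31.2 CPM against 68.2 and 68.7 CPM, 2.58-fold higher in the Tac1-high part in control (1.72–3.89) and 2.20-fold in CFA (1.24–3.93). Trpv2 did not differ beyond counting error, with a log2 difference of 0.18 (-0.31 to 0.65) in control and 0.37 (-0.31 to 1.04) in CFA. The Tac1-high neurons were shallower, with median depths of 27286 and 21582 UMIs against 53455 and 43580 UMIs.

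Over single neurons of the whole class, the Pearson r of Trpm8 with Trpv1 (log-normalized values) was -0.61 over 62 control and -0.62 over 37 CFA neurons. Within the Tac1-high part alone, Trpm8 and Trpv1 had r of -0.51 over 27 and -0.47 over 19 neurons, and within the Tac1-low part 0.04 over 35 and 0.01 over 18 neurons, where most neurons are at 0 for Trpv1. These are descriptions of neurons of 1 library each, which share library and differ in depth.

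**Figure D2:**
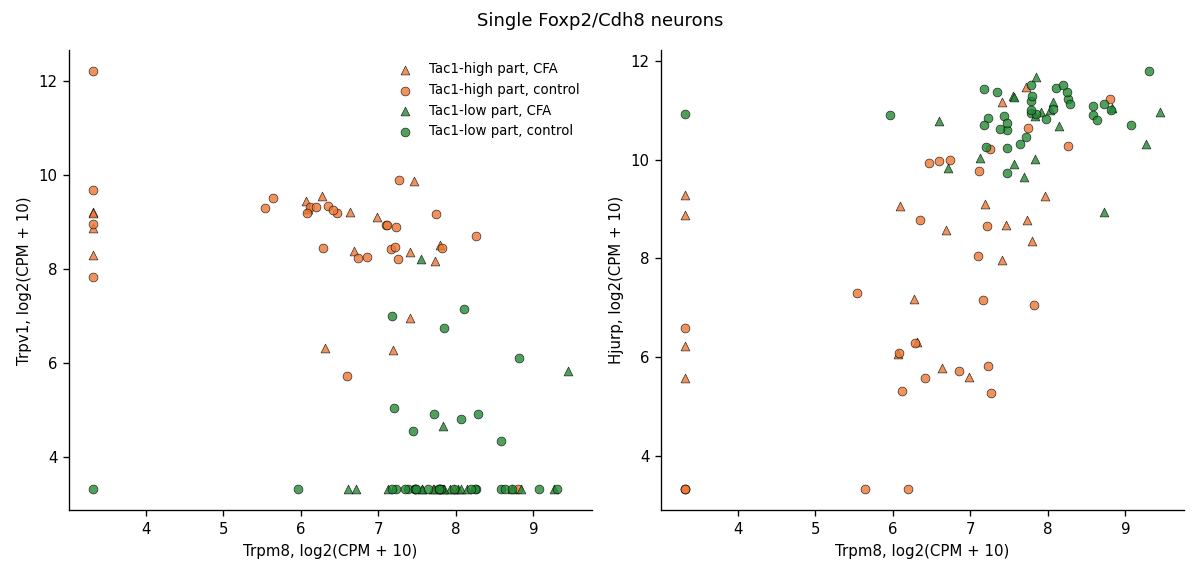
Single Foxp2/Cdh8 neurons, with Trpm8 on the horizontal axis against Trpv1 (left) and Hjurp (right) on the vertical axis, all as log2(CPM + 10); circles are control and triangles CFA neurons, green the Tac1-low and orange the Tac1-high part. Most Tac1-low neurons lie on the lower edge of the left panel, with no Trpv1 UMI, while 26 of 27 control and 17 of 19 CFA neurons of the Tac1-high part have at least 1.

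Trpm3 was spread over the nociceptor classes and low in touch neurons. In control neurons it was 111 CPM (104–118) in the Sstr2-low class, 105 CPM in the interferon-led class, 89.8 CPM in the Sstr2-high class, 85.9 CPM in Nefh peptidergic-like, 58.6 CPM in NP1-like, 55.1 CPM in NP3-like, 49.9 CPM in NP2-like and 41.8 CPM in Foxp2/Cdh8 neurons. From Sstr2-low to Nefh peptidergic-like and from NP1-like down to Foxp2/Cdh8, neighbours in this order did not differ beyond counting error. Classes further apart in the order were not compared. Among CFA neurons the Sstr2-low and Sstr2-high classes were neighbours and stood apart, at 138 and 108 CPM (log2 0.35, 0.12 to 0.58). Trpm3 was 3.30 CPM in cLTMR-like and 5.92 CPM in large A-fibre-like neurons of the control library.

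Trpv2 was counted in every named neuron class of the control library. Its levels in control ran from 35.2 CPM (29.3–41.9) in NP2-like to 70.0 CPM (65.2–74.98) in NP1-like neurons among the named classes. No neighbouring pair in that order differed beyond counting error, but the intervals at its ends did not overlap. In the 8 classes with at least 10 CFA neurons Trpv2 ran from 27.2 CPM in the Sstr2-low class to 71.2 CPM in NP3-like neurons. Of the neighbours there only NP1-like and cLTMR-like neurons stood apart, by a log2 difference of 0.45 (0.10 to 0.82). Trpv2 was also counted in the touch neurons: cLTMR-like neurons had 67.2 CPM (59.4–75.9) in control, where 91.7% of them held at least 1 UMI before thinning, and large A-fibre-like neurons had 35.5 CPM (22.7–52.8).

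Trpm2 was highest in NP3-like neurons, the small class with the itch peptides. There it was 233 CPM (195–278) over 12 control neurons and 214 CPM (177–256) over 11 CFA neurons, with at least 1 UMI in every neuron and medians of 10 and 9 UMIs. The 3 neurons with the most held 48.0% and 55.6% of these UMIs. The other classes lay far below, from 49.6 CPM (34.3–69.3) in interferon-led neurons to 1.40 CPM (0.80–2.27) in NP1-like neurons of the control library.

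**Figure D3:**
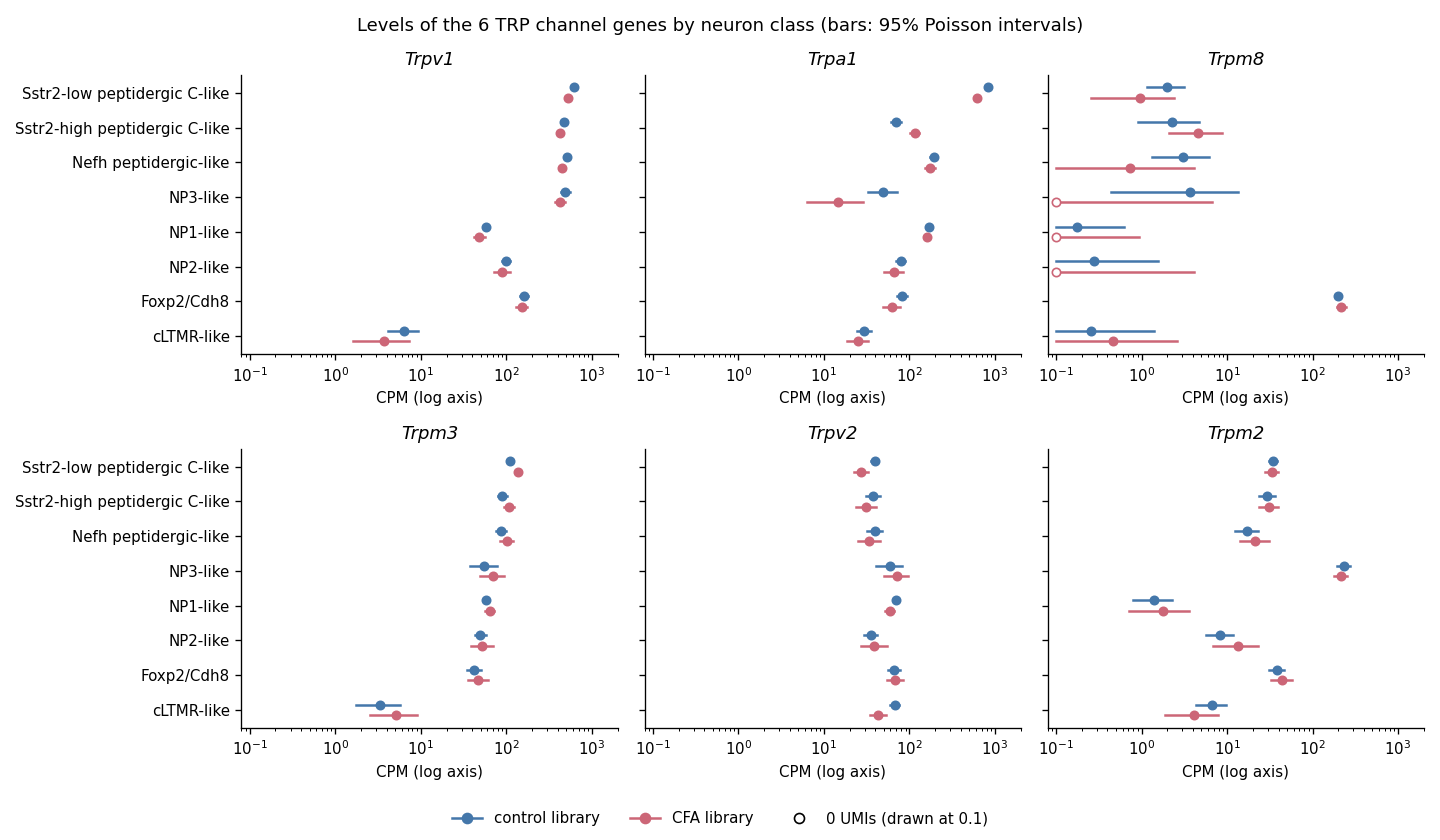
Level of each of the 6 genes by neuron class, in CPM on a log axis, for the control (blue) and CFA (red) library; points are the CPM of the summed counts of the class, bars 95% Poisson intervals, and open points classes with 0 UMIs. Trpm8 stands at 199 and 216 CPM in the Foxp2/Cdh8 class, Trpm2 at 233 and 214 CPM in NP3-like neurons, and Trpv2 lies between 27.2 and 71.2 CPM in every class shown.

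In the next counts, a neuron with or without a channel is one with or without a UMI of it after thinning. At 5000 UMIs per neuron, 53.0% of control and 48.9% of CFA neurons had at least 2 of the 6 genes, 22.6% and 18.8% at least 3, and 14.6% and 17.4% none. In the Sstr2-low class at least 2 were found in 84.6% and 79.0% of neurons, and in cLTMR-like neurons none was found in 45.8% and 63.8%.

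Trpa1 was found in 52.4% (231 of 441) of control neurons with Trpv1 and in 36.4% of those without. In CFA the shares were 43.9% (98 of 223) and 26.9%. The shares were taken within classes as well. In the Sstr2-low class 71.8% and 66.0% of Trpv1-positive neurons had Trpa1, against 7 of 14 and 7 of 13 neurons with no Trpv1 UMI left after thinning, and r over its neurons was 0.52 (n = 227 control neurons) and 0.42 (n = 119 CFA neurons). Its clusters 0, 4 and 8 differed in both genes. In control Trpv1 was 523, 658 and 747 CPM and Trpa1 364, 1141 and 1106 CPM. The part of this mix in r was not tested. In the Sstr2-high class Trpa1 was found in 24 of 85 control neurons with and 3 of 10 without Trpv1, and in 12 of 56 and 2 of 10 CFA neurons, too few without Trpv1 for a comparison. Among NP1-like neurons Trpa1 was found less often with Trpv1 (45.2% of 31 and 20.0% of 10) than without it (58.7% of 143 and 52.7% of 55), although the exact binomial intervals of the former, 27.3 to 64.0% and 2.52 to 55.6%, include the latter.

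Trpm3 was found in 37.2% of control neurons with Trpv1 and 19.2% of those without, and in 41.7% and 18.8% in CFA. Trpm2 was found in 16.1% and 3.95% in control, and in 18.8% and 4.30% in CFA. Read the other way, 83.5% and 84.0% of Trpm2-positive neurons had Trpv1. Trpm8-positive neurons had Trpv1 in 37.8% (14 of 37) of control and 20.0% (5 of 25) of CFA neurons, against 56.3% and 56.8% of Trpm8-negative neurons. These shares of Trpm3, Trpm2 and Trpm8 pool classes that differ in the levels of these genes. In control, cLTMR-like neurons had Trpv1 at 6.34 and Trpm3 at 3.30 CPM, and NP1-like neurons had Trpm2 at 1.40 CPM. The part of class mix in these shares was not tested. Of the 3 channels used as markers of heat, irritants and cold, all were found together in 6 of 795 control and 3 of 409 CFA neurons after thinning. Thinning removes UMIs, so these counts are lower bounds. Before thinning, Trpv1 was found in 26, Trpa1 in 22 and Trpm8 in 23 of the 27 control Tac1-high Foxp2/Cdh8 neurons. Among the 19 CFA neurons of that part the counts were 17, 10 and 15.

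The genes whose levels ran most like each channel over 18 class profiles, those of the 10 named classes in control and of the 8 with at least 10 neurons in CFA, were named by Pearson r of log2(CPM + 1) among 9505 genes with at least 500 UMIs. For Trpv1 they were Zbtb20 (r = 0.97), Tmcc2, Gcnt2, Cyfip2 and Scg2. For Trpa1 they included Dyrk2 (0.85), Cartpt, Il4ra and Chrnb3, and for Trpm3 Gpr45 (0.92), Tshz1, Trpv1 itself, Fgf13 and Ralgps2. Trpv2 had Snhg20 (0.85), Elmo2, Nectin1, Macf1 and Slc25a53, and Trpm2 had Maged1 (0.88), Sowahc, Sec61a1, Map7 and Adcy2. The profiles share libraries and class sizes, and likeness of levels says nothing of shared function.

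For Trpm8 they were Hjurp (0.92), Foxp2, Hcn4, Ppp1cb and Ccnd2, and Hjurp is also its neighbour on the chromosome. Hjurp, which encodes a chaperone of the centromeric histone CENP-A, lies at chr1:88262471-88277633 on the minus strand in GRCm38, head to head with Trpm8 and 27 bases from it in GENCODE M21. That distance runs to the GENCODE bound of Trpm8 at chr1:88277661. The RefSeq start used above follows chr1:88306734, inside the GENCODE gene and much further from Hjurp. Which start these neurons use was not tested. Hjurp stood at 1611 CPM in control and 1484 CPM in CFA neurons of the Foxp2/Cdh8 class, and no other class passed 46.1 CPM. Within that class r of Trpm8 with Hjurp was 0.69 and 0.59, and r of Trpv1 with Hjurp -0.82 and -0.74. Inside the Tac1-low part these were 0.31 and 0.04 for Trpm8 and 0.02 and 0.26 for Trpv1, and inside the Tac1-high part 0.66 and 0.43 for Trpm8 and -0.50 and -0.59 for Trpv1. Hjurp was among the genes the clusters were made from, so its level in the class is a description. Foxp2 is one of the markers that named the class, so its place among these genes is a description too. Since Trpm8 was high in this class only, the r values over class profiles rest largely on it.

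Between the libraries the channels differed little in all neurons together. A difference was counted where the CPM of the libraries stood further apart than 5 to 4, a log2 ratio past 0.32 either way, for genes with at least 50 UMIs. By this count Trpa1 was lower in CFA, from 293 to 232 CPM (log2 ratio -0.34, -0.39 to -0.28), and Trpm2 higher, from 20.5 to 26.3 CPM (0.36, 0.19 to 0.53). That is 1 of 6 genes lower and 1 of 6 higher, where 12.1% of 14512 genes tested were past this ratio lower and 13.3% higher (25.4% either way). Trpv2 just missed it at 53.6 and 43.3 CPM (-0.31, -0.43 to -0.19), and Trpm3 was 67.7 and 80.4 CPM (0.25, 0.15 to 0.34). Trpv1 was 272 and 261 CPM (-0.06, -0.11 to -0.01), and Trpm8 14.9 and 16.5 CPM (0.15, -0.07 to 0.36). With the classes weighted alike in both libraries the Trpm2 ratio was 0.08 and that of Trpm8 -0.12, while that of Trpv1 was -0.23. The Trpa1 ratio was -0.26 with every neuron weighted equally, -0.24 after thinning and -0.21 with equal weights of the 15 clusters, none of them past 5 to 4. For Trpa1 the ratio with the classes weighted alike is not given here.

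Trpv1 was lower in CFA in each of the 7 classes in which it was tested together with Trpm3 and Trpv2, by log2 ratios between -0.24 and -0.09, and past the ratio of 5 to 4 in none. Trpm3 was higher in all 7, by 0.07 to 0.33. Of 4060 genes tested in all 7 classes, 514 (12.7%) were lower in each and 504 higher in each. The intervals lay below 0 for Trpv1 in Sstr2-low, Nefh peptidergic-like and NP1-like neurons and above 0 for Trpm3 in the Sstr2-low and Sstr2-high classes. The NP1-like clusters differed in this, with a Trpv1 ratio of -1.43 in cluster 2 (179 and 22 UMIs) and -0.05 (-0.31 to 0.21) in cluster 5.

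In the Sstr2-low class Trpa1 was lower in CFA at -0.44 (-0.51 to -0.38) and Trpv2 at -0.52 (-0.84 to -0.22, from 39.2 to 27.2 CPM). These were 2 of the 5 channels tested, where 14.9% of 11285 genes were past the ratio lower and 28.3% either way. Trpv1 was 621 and 525 CPM (-0.24, -0.31 to -0.17), Trpm3 111 and 138 CPM (0.31, 0.16 to 0.46) and Trpm2 34.5 and 33.2 CPM (-0.06, -0.35 to 0.24). The Trpa1 ratio came from clusters that differed in direction. Trpa1 was 364 and 449 CPM in cluster 0 (0.30, not past 5 to 4), 1141 and 714 CPM in cluster 4 (-0.68) and 1106 and 1062 CPM in cluster 8 (-0.06). The median neuron of cluster 0 was at 93.7 CPM in control and 102.6 CPM in CFA, with 24.5% and 29.6% of neurons at 0. Cluster 0, the lowest of the 3, made up 43.2% of the class in control and 59.7% in CFA, and with the clusters weighted alike the ratio was -0.26. Per neuron, Trpa1 in cluster 4 had a median of 945 CPM and a highest value of 3147 CPM in 85 control neurons, and a median of 630 CPM and a highest value of 2313 CPM in 30 CFA neurons, so that the ranges overlapped. Schwann cell genes summed to 837 and 671 CPM in the neurons of the Sstr2-low class, satellite glia genes to 470 and 374 CPM, interferon-induced genes to 168 and 86.2 CPM and haemoglobin genes to 76.9 and 29.6 CPM, with median depths of 37922 and 32275 UMIs per neuron. Their part in these differences was not tested.

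In the Sstr2-high class Trpa1 was higher in CFA, at 69.8 and 115 CPM (0.72, 0.44 to 0.99), 1 of 5 channels tested, where 15.5% of 9031 genes were past the ratio higher and 30.2% either way. This rests on few neurons. The 3 CFA neurons with the most, at 47, 43 and 42 UMIs, held 132 of the 224 UMIs, the next had 16, and the 3 highest control neurons held 59 of 214. Thinned shares went the other way, with a Trpa1 UMI in 28.4% (27 of 95) of control and 21.2% (14 of 66) of CFA neurons. Haemoglobin genes, 4 of 4 detected, also stood higher in the CFA neurons of this class, at 15.3 and 116 CPM, while Schwann cell genes summed to 862 and 591 CPM, satellite glia genes to 465 and 345 CPM and interferon-induced genes to 152 and 72.8 CPM. The part of these lists in the result was not tested.

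**Figure D4:**
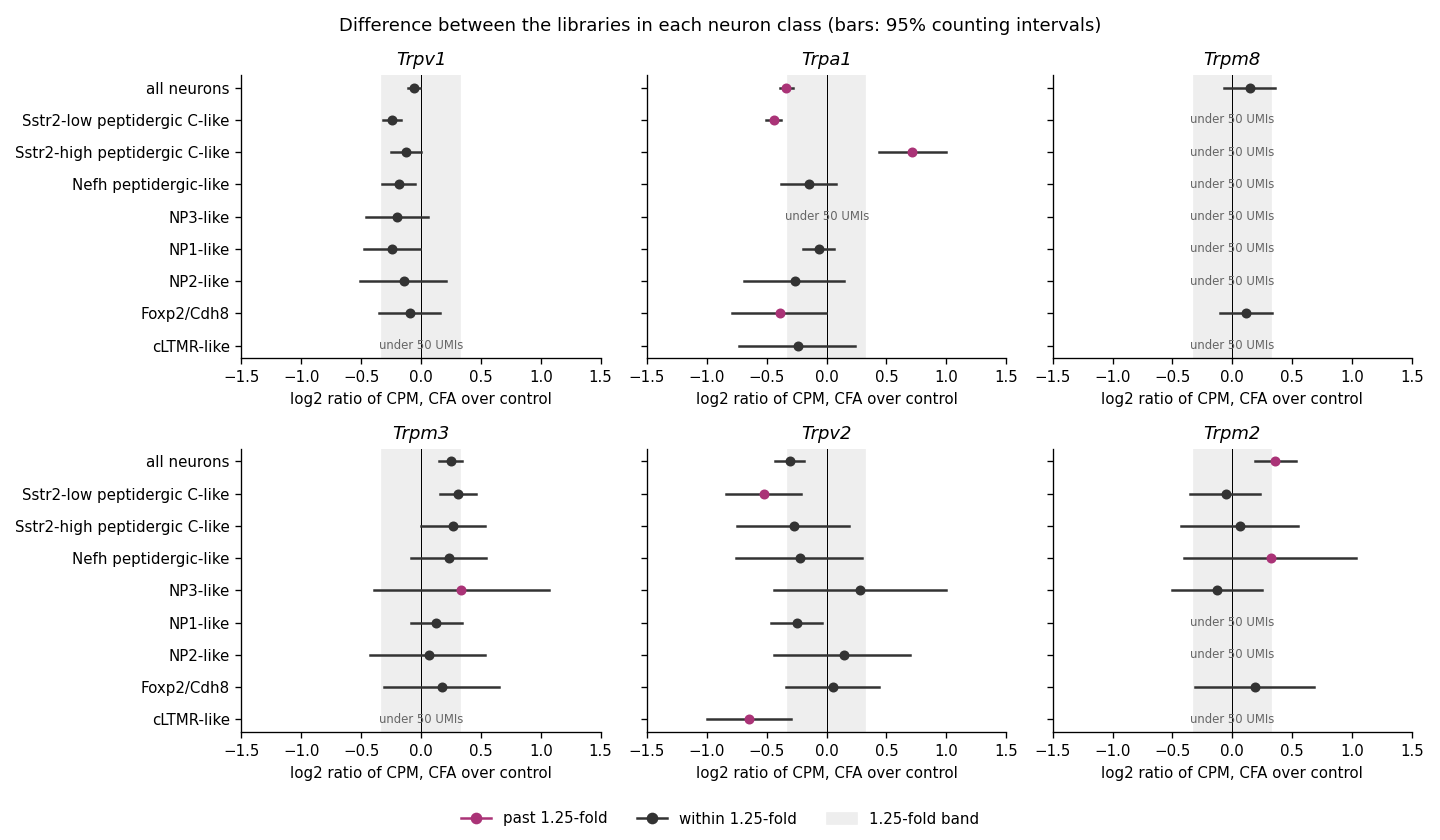
Log2 ratio of CPM in CFA over control for each channel in all neurons and in 8 classes; bars are 95% counting intervals, the grey band spans ratios within 5 to 4 (log2 0.32), purple points lie past it, and classes with under 50 UMIs over both libraries carry no point. Trpa1 lies below the band in the Sstr2-low and Foxp2/Cdh8 classes and above it in the Sstr2-high class.

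Elsewhere few channels passed the ratio of 5 to 4. In cLTMR-like neurons Trpv2 was 67.2 and 43.0 CPM (-0.65, -1.0 to -0.30), 1 of 2 channels tested, where 16.1% of 9295 genes were past it lower and 28.2% either way. Its thinned share was 34.7% (25 of 72) and 17.0% (8 of 47), and Schwann cell genes summed to 2127 and 1938 CPM in the same neurons, whose part was not tested. In Foxp2/Cdh8 neurons Trpa1 was 81.3 and 62.1 CPM (-0.39, -0.79 to -0.0033), 1 of 6 channels, where 18.8% of 8397 genes were past it lower and 31.1% either way, and 3 of 37 CFA neurons held 55 of the 75 UMIs. In the same neurons Schwann cell genes summed to 441 and 238 CPM, satellite glia genes to 294 and 134 CPM and macrophage genes to 52.3 and 1.66 CPM, with median depths of 41554 and 30085 UMIs per neuron, and their part was not tested. Trpm8 in that class was 199 and 216 CPM (0.12, -0.10 to 0.34). In Nefh peptidergic-like neurons Trpm2 was 17.0 and 21.3 CPM (0.33, -0.40 to 1.03), 1 of 5 channels, where 16.9% of 8477 genes were past it higher and 33.4% either way. NP3-like neurons had Trpm3 at 55.1 and 69.4 CPM (0.33, -0.40 to 1.07), 1 of 4 channels, where 19.9% of 4235 genes were past it higher and 39.0% either way. Both of these intervals span 0. None of 4 channels in NP1-like neurons (24.3% of 10890 genes past it either way) and none of 4 in NP2-like neurons (33.4% of 8363) passed it.

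Among 21 other TRP family genes, 12 had enough UMIs over all neurons. Trpm6 and Pkd2l2 were past the ratio of 5 to 4 higher in CFA and 1 gene was lower, beside the 13.3% and 12.1% of all genes given above. Their median log2 ratio was -0.04, beside -0.0025 for all genes tested.

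Of 25 genes for partners and sensitizing signals of TRP channels, 24 were tested over all neurons, with Zbtb20 past the ratio higher, F2rl1, Ptger2 and Tmem79 lower and a median of 0.03, beside 13.3% higher, 12.1% lower and a median of -0.0025 for all genes. In the Sstr2-low class, where Trpv1 and Trpa1 were highest, 7 of 22 were higher and Ptger2 and Tmem79 lower, with a median of 0.16 beside -0.01 for all 11285 genes, of which 13.4% were past the ratio higher and 14.9% lower. The 7 included Ngfr, a receptor of nerve growth factor, at 579 and 729 CPM (0.33, 0.27 to 0.40), and prostaglandin receptors, Ptger4 at 25.6 and 37.7 CPM (0.56, 0.26 to 0.85) and Ptgir at 80.2 and 104.7 CPM (0.38, 0.21 to 0.56). Tmem100, whose protein links Trpa1 to Trpv1, was 241 and 301 CPM (0.32, 0.22 to 0.42). Ppp3ca, the catalytic subunit of calcineurin, was 1515 and 1927 CPM (0.35, 0.31 to 0.39). Tmem79 was lower at 34.5 and 18.2 CPM (-0.92, -1.30 to -0.55). Cluster 0 made up 43.2% of the Sstr2-low class in control and 59.7% in CFA. The part of this mix in the ratios of that class, here and for the genes of the next paragraphs, was not tested.

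Zbtb20 is a transcription factor gene that nociceptors need for normal TRP channel expression, and it had the closest profile to Trpv1. It was past the ratio of 5 to 4 higher in CFA in every class compared except NP1-like neurons. This includes cLTMR-like neurons, where Trpv1 was low. How the genes relate was not tested. Zbtb20 was 425 and 550 CPM in the Sstr2-low class (0.37, 0.30 to 0.45) and 307 and 555 CPM in NP3-like neurons (0.86, 0.58 to 1.14). In NP1-like neurons it was 103 and 119 CPM (0.21).

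Of 14 other channels tied to temperature, 13 were tested over all neurons, with 5 past the ratio higher, 1 lower and a median of 0.21, beside the same shares and median of all genes. Among those higher were Kcnk2, the background potassium channel TREK-1, at 60.7 and 78.8 CPM (0.38, 0.28 to 0.48), Kcna1 at 17.2 and 22.4 CPM (0.38, 0.19 to 0.57), and Grik2, a kainate receptor gene tied to cold sensing, at 3.32 and 5.61 CPM (0.76, 0.36 to 1.15). Scn10a, the sodium channel Nav1.8, was lower at 339 and 270 CPM (-0.33, -0.38 to -0.28). Among single classes it was past the ratio lower in NP3-like neurons only. The class mix differed between the libraries, with NP1-like neurons at 21.9% of control and 15.9% of CFA neurons. The part of this mix in the all-neuron ratios of listed genes was not tested. In the Sstr2-low class 4 of 13 were higher, among them Kcnk2 at 106 and 136 CPM, Grik2 and Kcna2, and Kcna1 was lower, beside 13.4% and 14.9% of all genes.

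Outside neurons only Trpm3 had a level near that of neurons with many counts behind it. Satellite glia-like cells, the glia that wrap the neuron bodies, had 112 CPM (99.2–126) over 1172 control cells and 119 CPM (97.7–144) over 462 CFA cells, beside 67.7 and 80.4 CPM over all neurons. A Trpm3 UMI was found in 18.7% and 17.5% of these cells at median depths of 1974.5 and 1770 UMIs, and in 1.37% and 1.22% of endothelial-like cells at 1377.5 and 1550 UMIs. The intervals of the 2 larger clusters of satellite glia-like cells overlapped, at 109.6 and 113 CPM in control and 112 and 149 CPM in CFA.

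Neuronal RNA was counted in other cells too, so each channel was set beside the neuron markers. For each 1000 UMIs of Tubb3, Snap25 and Stmn2, neurons had 11.2 and 13.4 Trpm3 UMIs and satellite glia-like cells had 415 and 893. Trpv1 in the same glia stood at 39.4 and 41.3 UMIs per 1000 against 44.9 and 43.4 in neurons, and Trpa1 at 24.8 and 41.3 against 48.4 and 38.6. No interval was taken for these ratios, and in the CFA glia those of Trpv1 and Trpa1 rest on few UMIs. Trpm3 was also above its ratio in neurons in myelinating Schwann-like cells (42.5 and 46.1 CPM, 168 and 330 UMIs per 1000) and fibroblast-like cells (31.3 and 58.3 CPM, 117 and 600 UMIs per 1000). Neurons held 84.0% and 84.9% of the Trpm3 UMIs of all kept cells and 98.3% and 97.7% of those of Trpv1. Over all genes, neurons held 38555079 of the 48916096 deposited UMIs in control and 16768978 of 22096268 in CFA. Most UMIs of all genes together thus lay in neurons too.

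Trpm2 was counted in phagocytes, on few UMIs. Neutrophil and monocyte-like cells had 88.9 CPM (40.7–169) from 9 UMIs in 50 control cells and 112 CPM (30.5–287) from 4 UMIs in 25 CFA cells. Macrophage-like cells had 5.45 CPM (0.66–19.7) from 2 UMIs in 173 control cells and 42.9 CPM (22.2–74.9) from 12 UMIs in 156 CFA cells, and these intervals do not overlap. Trpv2 in macrophage-like cells lay the other way, at 40.9 CPM (22.9–67.5) and 10.7 CPM (2.21–31.3), with overlapping intervals. Mural-like cells had Trpv2 at 90.2 CPM from 9 UMIs in 67 control cells and 63.3 CPM from 2 UMIs in 23 CFA cells.

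**Figure D5:**
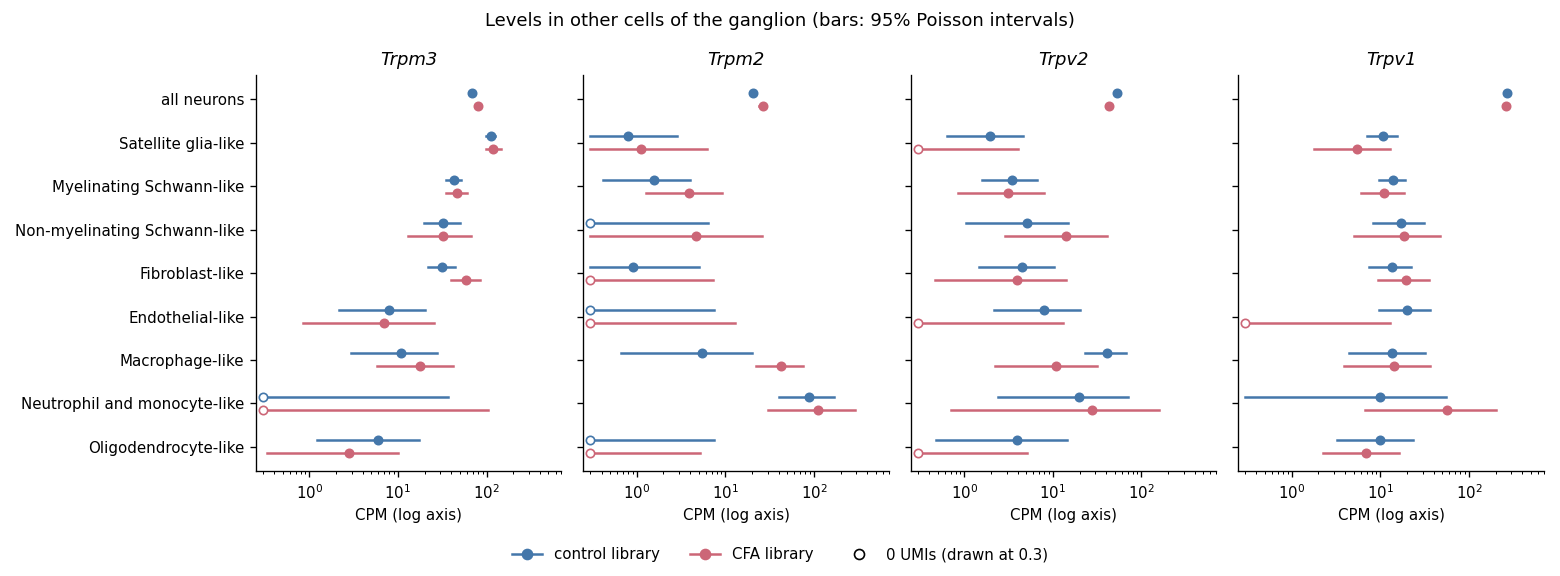
Levels of Trpm3, Trpm2, Trpv2 and Trpv1 in all neurons and in 8 classes of other cells, in CPM on a log axis, for the control (blue) and CFA (red) library; bars are 95% Poisson intervals and open points have 0 UMIs. Trpm3 in satellite glia-like cells lies at 112 and 119 CPM, above all neurons at 67.7 and 80.4 CPM, and Trpv1 lies at no more than 18.6 CPM in satellite glia-like and Schwann-like cells.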

How the data were processed

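Dissociated trigeminal ganglion cells of control and CFA-treated mice were measured by BD Rhapsody whole-transcriptome single-cell RNA sequencing, with 1 library per condition grouped by its treatment label. The authors deposited whole-number UMI counts per gene and cell without normalization; fastp and GRCm38 are named in the submitters' processing notes, and aligner, annotation and strand setting are not given in the sources used here. Kept were cells with 150 genes or more and a mitochondrial share up to 25%, from 48916096 and 22096268 deposited UMIs. Neurons (at least 5000 UMIs, and 10 UMIs of Tubb3, Snap25 and Stmn2) and other cells were clustered apart in Seurat 5.3.0 (2000 variable genes, 20 principal components, 20 neighbours, Louvain resolution 1 and 0.8, seed 1), leaving every TRP family gene out of clustering and naming. Clusters were named from fixed markers by rules set during the work, and differences from published class names may come from that. The members and gene lists were chosen with earlier results of these data known.

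Counts were summed per class and given as CPM with 95% Poisson intervals, shares with exact Clopper-Pearson intervals, and ratios with conditional exact binomial intervals. These cover counting error only, and a count of 0 was read as allowing 3 UMIs. With 1 library per condition no p-value was computed. For detection, neurons were thinned to 5000 UMIs. Scrublet, run through scanpy 1.11.5, called only 2 control and 5 CFA cells and so did not work, and doublets were not removed. Listed genes are named where they were past the ratio of 5 to 4 with at least 200 UMIs, at most 6 per list and class; Trpm6, Pkd2l2, Ngfr, Tmem100, F2rl1, Ptger2, Grik2, Kcna1 and Kcna2 in the Sstr2-low class, and Zbtb20 in NP1-like neurons, were named beyond this rule after their values were seen. Some genes that the rule would name are not reported here. The 5 genes most like each channel came from genes with at least 500 UMIs. Analyses used Python 3.11.15, numpy 2.4.6, scipy 1.17.1 and pandas 2.3.3, and the ratio step was tested on simulated data. Alternatives covered cell filters, neuron threshold, cluster resolution, weights of cells and classes, thinning, detection threshold and background minimum.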

Additional observations from a re-analysis of the deposited data

Results flagged for a closer look

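Trpa1 differed between the libraries in opposite directions in neighbouring groups of neurons. Its log2 ratio of CFA over control was -0.44 in the Sstr2-low and -0.39 in the Foxp2/Cdh8 class but 0.72 in the Sstr2-high class, and within the Sstr2-low class it was -0.68 in cluster 4 but 0.30 in cluster 0. In the Sstr2-high class 3 CFA neurons held 132 of 224 UMIs, and the thinned share was 28.4% of control and 21.2% of CFA neurons. In the Foxp2/Cdh8 class 3 of 37 CFA neurons held 55 of 75 UMIs. With 1 library per condition the differences between groups were not tested.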

How the results depend on the processing

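Of 192 alternative values for 27 results, 156 stayed within the counting error of the reported value or within 1.5 times the reported count, and 36 moved further. Of 130 alternative log2 ratios 128 kept the sign, and the other 2 were those of Trpm8 over all neurons with equal class and equal cluster weights, a ratio that was not past 5 to 4. Over all neurons, with every neuron weighted equally, the ratio was -0.12 for Trpv1 and -0.26 for Trpa1. With thinning it was -0.13 for Trpv1, -0.24 for Trpa1, 0.41 for Trpm8 and -0.49 for Trpv2. With equal class weights it was -0.23 for Trpv1, -0.12 for Trpm8 and 0.080 for Trpm2, and with equal weights of the 15 clusters, chosen after seeing the data, -0.20 for Trpv1, -0.21 for Trpa1, -0.12 for Trpm8 and 0.10 for Trpm2. In the Sstr2-low class the Trpa1 ratio was -0.26 with equal neurons, -0.25 thinned, -0.36 with no mitochondrial limit, -0.26 with equal cluster weights and -0.024 at resolution 2. At resolution 2 the name covered other neurons. A cluster of 57 control and 19 CFA neurons with Chrna3, Chrnb4, Nos1 and Trpa1 among its leading genes was left unnamed. So was a cluster of 17 and 12 neurons with Scgn and Prokr2 among its leading genes. The Sstr2-low name also went to a cluster of 32 and 18 neurons led by Cdhr1. At resolution 1 Cdhr1 was a leading gene of the Nefh peptidergic-like cluster. Thinned ratios in the Sstr2-low class were 0.52 for Trpm3 and -1.18 for Trpv2. Trpa1 in the Sstr2-high class gave 0.38 with equal neurons and 0.26 thinned, and Trpv2 in cLTMR-like neurons gave -1.15 thinned. The cause was not tested.

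The share of Trpv1-positive neurons with Trpa1 was 43.9% in control and 35.8% in CFA at 2 UMIs, and 79.8% and 65.7% unthinned. With Trpm3 it was 10.7% and 15.8% at 2 UMIs, and 87.5% and 87.9% unthinned. The share of Trpm8-positive neurons with Trpv1 was 12.5% in control at 2 UMIs, and 69.2% and 60.0% unthinned. With at least 200 UMIs per gene, 2073 genes in place of 3687 were past the ratio of 5 to 4 over all neurons and 1646 in place of 3190 in the Sstr2-low class. At resolution 0.5 no cluster was named Sstr2-low, so it gave no value. No paired analysis was possible because each condition had 1 library and the labels carry no replicate numbers.

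Depth limits Trpm8 and Trpm2 outside their classes, where few UMIs were counted, and Trpm2 and Trpv2 outside neurons. Classes of under 20 neurons, NP3-like and large A-fibre-like among them, rest on few cells of 1 library.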

Other observations

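Among the cells below the neuron threshold, 394 control and 129 CFA cells formed a cluster led by neuronal genes, with median depths of 1511.5 and 1385 UMIs. Trpv1 stood at 92.6 CPM in the control and 248 CPM in the CFA cells of this cluster, Trpa1 at 92.6 and 147 CPM, Trpm3 at 51.5 and 96.5 CPM, Trpv2 at 17.6 and 50.6 CPM and Trpm2 at 13.2 and 46.0 CPM. Trpm8 was counted with 7 and 6 UMIs. These cells entered no comparison of the report.

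Cluster 2 of the NP1-like class had Trpv1 at 26.1 CPM from 179 UMIs in control and 9.70 CPM from 22 UMIs in CFA neurons, a log2 ratio of -1.43, while Trpa1 in the same neurons was 137 and 125 CPM. Fibroblast-like cells had Trpm3 at 31.3 CPM from 35 UMIs and 58.3 CPM from 30 UMIs, with overlapping intervals of 21.8–43.5 and 39.4–83.3 CPM.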
